A study of Mus musculus with 7 samples.

Results

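Rapid-response genes of the Ier, Zfp36 and Btg families, with Gadd45b and Myc, were followed in whole mammary glands, from 3 mice of the wild-type and 4 of the PRA transgenic genotype. The group held 10 genes, namely Ier2, Ier3, Ier5, Myc, Zfp36, Zfp36l1, Zfp36l2, Btg1, Btg2 and Gadd45b, and its members were taken as every non-control probe that carries one of these symbols in the scanner files. This gave 15 of 56605 probes, with 5 genes on 2 probes and 5 genes on 1 probe, and all 15 were among the 34288 probes whose gland signal stood well above background throughout 1 genotype or both. The genes were selected on the measured difference between PRA transgenic and wild-type glands in these same 7 arrays, so that difference is given below as a description. No p is given for a member, and counts past a call rule stand beside the share of all tested probes that passed it.

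All animals were nulliparous FVB females of 20 to 25 weeks taken at diestrus, the cycle stage in which progesterone is high, and each array held RNA of a single abdominal gland whose lymph nodes had been cut out. The PRA transgenic animals are bigenic: a CMV promoter drives the activator GAL-4, which in turn switches on a UAS-linked gene for the A form of the progesterone receptor, and the CMV promoter is not specific to a cell type. The labels call these glands preneoplastic. The wild-type animals carried the FVB background without the additional receptor. Gland RNA was labelled with Cy5 and hybridized against Cy3-labelled Universal Mouse Reference RNA, a pool from mouse cell lines that was the same on every array. Values are log2 ratios of gland over reference, where a difference of 1 is a 2-fold difference, and log2 Cy5 signals where the gland channel is given alone.

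Rapid-response genes, also called immediate-early or primary response genes, are transcribed within minutes of a growth factor, stress or hormone signal without new protein synthesis, and many of their messages are destroyed as quickly as they are made. Zfp36 proteins bind AU-rich elements in such messages and recruit the CCR4-NOT complex, which removes the poly(A) tail. Btg proteins bind the deadenylase subunits of the same complex and slow cell proliferation, whereas Gadd45b takes part in the response to stress and DNA damage, and Myc is a transcription factor that drives growth. In the mammary gland such genes answer growth factors and steroid hormones.

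The sequences bear on how these messages are made and removed. Promoters of 7 of the 10 genes were matched in the RefSeq set (GRCm38.p6), namely those of Btg1, Btg2, Gadd45b, Ier3, Ier5, Zfp36 and Zfp36l1, and the 250 bases before the start site were searched on both strands. The Zfp36 promoter was the member promoter with a CArG box, the element bound by serum response factor, against 1.47% of all 32851 promoters. The Btg2 promoter was the one with the full cAMP response element TGACGTCA, against 1.55% of all promoters. A TATA box (TATAAA) was found in Btg1, Gadd45b and Zfp36l1, against 12.37% of all. The stretches of 30 bases below show each of these elements in capitals on the gene's own strand.

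Zfp36, CArG box starting 58 bases before the start site, chr7:28379267-28379296, minus strand: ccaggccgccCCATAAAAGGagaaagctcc
Btg2, cAMP response element starting 166 bases before the start site, chr1:134079303-134079332, minus strand: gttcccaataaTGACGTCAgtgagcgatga
Btg1, TATA box starting 26 bases before the start site, chr10:96616963-96616992, plus strand: tttccgcagcccTATAAAatgagctgcacg
Gadd45b, TATA box starting 46 bases before the start site, chr10:80930033-80930062, plus strand: cccgggaagtcaTATAAAccgctcgcagcg
Zfp36l1, TATA box starting 29 bases before the start site, chr12:80113025-80113054, minus strand: cccaccaaatctTATAAAttgggctttgcg

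No AP-1 site (TGACTCA or TGAGTCA) and no GGGNNTTTCC lay in the 7 windows, and these letters occurred in 4.46% and 1.41% of all promoters. The core letters TGTTCT of the progesterone response element were likewise not found there, against 16.08% of all promoters. GGGCGG was held by 6 of the 7, all but Zfp36l1, against 32.74% of all. These matches are letters in a window and say nothing of whether a factor was bound.

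The array probes themselves carry part of the AU-rich sequence. The core letters ATTTA occurred in 5 of the 15 member probes, against 8.08% of the 56605 probes, and 2 or more copies occurred in the probes of Zfp36 and Ier3, against 0.48%. The Zfp36 probe held 3 copies, so the message for the AU-rich element binding protein is measured on a stretch that carries that element itself. It was also the member probe with the longer form TTATTTATT, which 0.154% of all probes hold. The 30-base windows below, each from its probe and with ATTTA in capitals, show these elements, with positions on mm9, the build named in the scanner files. The Zfp36 window holds 2 of the 3 copies of its probe.

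Zfp36, chr7:29161972-29162001, minus strand: ATTTAtgacgactttATTTAttgtattaag
Ier3, chr17:35959535-35959564, plus strand: acacagatATTTAttacgATTTAtagggtc
Btg1, the dimmer probe, chr10:96085364-96085393, plus strand: ttaaatcagtcggATTTAtgaataacttca
Btg2, the brighter probe, chr1:135973828-135973857, minus strand: ttaaaatgaagagctATTTAtacatgtctt
Zfp36l1, the brighter probe, chr12:81208803-81208832, minus strand: tttctttgtgtgaattcATTTAaaagaaaa

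The arrays differed in brightness by genotype. Gland signal was well above background for 62.6 to 66.2% of probes on the wild-type arrays and 56.6 to 60.2% on the PRA transgenic arrays. The median difference of all tested probes was -0.20 in log2 Cy5 but 0.02 in the log2 ratio, since the reference channel was dimmer by a similar amount. A single slide carried the 7 arrays, with its first row given to the wild-type and its second to the PRA transgenic genotype, so row and genotype cannot be told apart. No annotation was used to tell whether the Pgr probes read the added A form, so they are no check of the transgene. The brightest Pgr probe differed by -0.65 in the ratio (SE 0.80, limma adjusted p = 0.859) and by -0.17 in log2 Cy5. Its reference signal was well above background on 0 of the 7 arrays. In whole glands, fewer cells of a type and less RNA per cell cannot be told apart.

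The Zfp36 family held the member with the clearest separation of the genotypes and the member with the least. Zfp36l2, an RNA-binding protein of the family known for its part in blood cell and oocyte development, had log2 ratios of 0.46, 0.71 and 0.72 in the wild-type glands and -0.44, -0.55, -0.72 and -0.00 in the PRA transgenic glands. Every PRA transgenic gland lay below every wild-type gland, with a difference of -1.06 (SE 0.19), or 2.09-fold higher in wild-type. Gland signal alone gave the same order, with a difference of -1.16 in log2 Cy5. The probe lies at chr17:84583415-84583474 on mm9, minus strand, and its first 30 of 60 bases identify it.

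Zfp36l2 probe, first 30 bases: gagcagttgtttagtttgtatgtaggtaca

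Zfp36 (tristetraprolin), the founding member of the family and a brake on inflammatory messages, read -1.13, -0.83 and -1.11 in wild-type and -1.63, -1.67, -1.79 and -1.17 in PRA transgenic glands. The genotypes again did not overlap, although the PRA transgenic gland 4 lay just below the lowest wild-type gland, and the difference was -0.55 (SE 0.18). Zfp36l1, the relative that was brightest against the reference, read 1.06, 1.32 and 1.19 in wild-type and 1.07, 1.23, 1.20 and 1.32 in PRA transgenic glands. The genotypes covered the same range, with a difference of 0.01 (SE 0.12) on this probe and 0.08 (SE 0.12) on the other. These were the smallest SEs of the 15 probes.

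**Figure D1:**
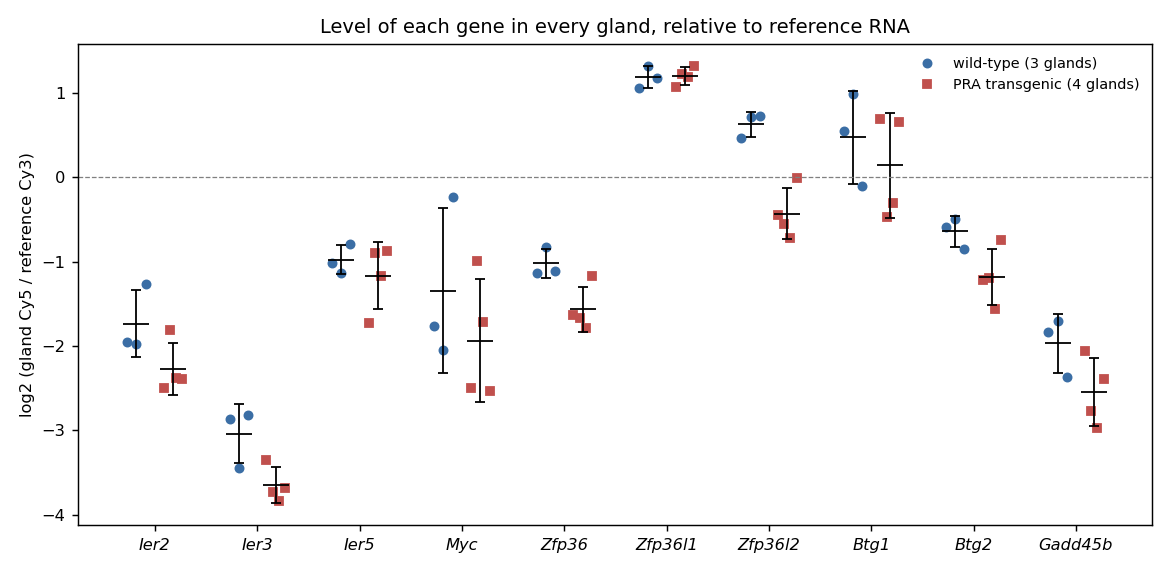
Log2 ratio of gland over reference RNA (vertical axis) of the brightest probe of each of the 10 genes (horizontal axis), with circles for the 3 wild-type and squares for the 4 PRA transgenic glands and a bar for the mean ± SD. The genotypes do not overlap for Zfp36 and Zfp36l2 and lie on top of each other for Zfp36l1, while Myc and Btg1 scatter widely within each genotype.

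The Ier genes encode short-lived products of growth factor and stress signals. Ier3, a regulator of cell survival, read -2.86, -3.44 and -2.81 in wild-type and -3.35, -3.73, -3.84 and -3.69 in PRA transgenic glands. All but the PRA transgenic gland 1 lay below the lowest wild-type gland, and the difference was -0.61 (SE 0.20), or 1.53-fold. Ier5, which takes part in the heat shock response, read -1.01, -1.13 and -0.79 against -1.73, -0.89, -1.17 and -0.87, with overlapping genotypes and a difference of -0.19 (SE 0.23). Without the PRA transgenic gland 1, which stood lowest, the difference for Ier5 was -0.00.

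Ier2, a nuclear protein of the early growth factor response, was read by 2 probes that did not behave alike. The brighter probe gave -1.95, -1.98 and -1.27 in wild-type and -2.50, -1.81, -2.38 and -2.39 in PRA transgenic glands, a difference of -0.54 (SE 0.24) with 3 of 4 PRA transgenic glands below all wild-type glands. Without wild-type gland 3 it was -0.31. The dimmer probe gave -3.32, -2.92 and -3.57 against -3.63, -4.17, -3.80 and -3.71, a difference of -0.55 (SE 0.20) with no overlap, and was well above background on 3 of 3 wild-type arrays but 1 of 4 PRA transgenic arrays. Within each genotype the pair ran in opposite directions: wild-type gland 3 and PRA transgenic gland 2 were the highest of their genotype on the brighter probe and the lowest on the dimmer one. The Pearson correlation of the deviations from the genotype means was -0.89 over the 7 arrays, whereas the probe pairs of Btg1, Btg2 and Myc gave 0.81, 0.92 and 0.99. The pair of Zfp36l1, whose glands differed little, gave -0.54. The dimmer probe is assigned to the cDNA clone AK032692 and lies at chr8:87183623-87183681 (mm9, minus strand), apart from the brighter probe at chr8:87185211-87185245, so it is reported beside Ier2 and not as a second reading of it. The first 30 bases of both are given to tell them apart.

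Ier2, brighter probe: ctgaactgaaccaatcaaatctgcgcagag
Ier2, dimmer probe of the cDNA clone: ccccccgggaagtttaagatcattcttaac

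The antiproliferative genes gave a less uniform picture. Btg2, a target of p53, read -0.58, -0.49 and -0.84 in wild-type and -1.22, -1.19, -1.56 and -0.75 in PRA transgenic glands on its brighter probe. All but the PRA transgenic gland 4 lay below the wild-type range, with a difference of -0.54 (SE 0.21), and the other probe gave -0.40 (SE 0.20). Btg1, which restrains lymphocyte and epithelial proliferation, read 0.55, 0.99 and -0.11 against 0.70, -0.47, -0.31 and 0.65 on its brighter probe, with overlapping genotypes and a difference of -0.34 (SE 0.39) that was -0.08 without wild-type gland 2 and -0.63 without wild-type gland 3. Its dimmer probe, farther along chromosome 10 on the same strand, read -1.35, -0.98 and -2.33 against -2.68, -3.52, -2.56 and -1.84, a difference of -1.10 (SE 0.45) with 3 of 4 PRA transgenic glands below all wild-type glands, and between -1.49 and -0.81 when a gland was left out. The differences of the 2 Btg1 probes were 0.76 apart, so the size of a Btg1 difference depended on the probe.

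Gadd45b, a stress sensor that acts on the p38 and JNK kinase cascades, read -1.84, -1.70 and -2.36 in wild-type and -2.06, -2.77, -2.97 and -2.40 in PRA transgenic glands. All but the PRA transgenic gland 1 lay below the wild-type range, with a difference of -0.58 (SE 0.26). Myc read -1.76, -2.05 and -0.23 in wild-type and -2.50, -0.996, -1.72 and -2.53 in PRA transgenic glands on its brighter probe. The genotypes overlapped, and the difference of -0.59 (SE 0.54) rested on wild-type gland 3, without which it was -0.03. The other Myc probe gave -0.08 (SE 0.47).

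Counted together, 13 of the 15 probes and 9 of the 10 brightest probes had a lower mean in PRA transgenic glands, and the median difference of the 15 was -0.54 against 0.02 for all tested probes. At an unadjusted limma P under 0.05 with a 1.5-fold change, 3 of 15 were lower, the probes of Zfp36l2 and Ier3 and the dimmer Btg1 probe, where 2.59% of all tested probes were lower. None was higher, where 1.94% of all were higher, and none passed a Benjamini-Hochberg adjusted p of 0.05, as did 0.0117% of all tested probes (4 of 34288). At an unadjusted P under 0.05 alone, 6 of 15 were lower, where 4.48% of all were, and the methods' t-test with the fold change gave 2 lower, where it gave 1.64% of all, and 0 after adjustment. Every PRA transgenic gland lay below every wild-type gland for 3 of 15 probes, where 4.51% of all tested probes did so. Among these 3 was the dimmer Ier2 probe, which was kept through its wild-type signal alone. The count was 2 among the 14 probes above background on all arrays. The dimmer Ier2 probe is likewise among the 13 probes with a lower mean and the 6 at an unadjusted P under 0.05. It also enters the median of the 15. Because the genes were chosen on this contrast, nothing is read from these counts against the background. Without wild-type gland 3 the count of 3 by P and fold change was 6, where 2.81% of all tested probes were lower. It was 6 without PRA transgenic gland 4, where 3.51% were, and 1 without PRA transgenic gland 3, where 2.18% were. Single glands therefore decided which probes passed. In gland signal alone, whose median over all tested probes was itself -0.20, 9 of the 15 were lower by P and fold change, where 6.02% of all were. The brightest probes of 6 genes (Ier2, Ier3, Ier5, Btg2, Zfp36 and Zfp36l2) did not overlap in that channel, where 13.6% of all tested probes did not.

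**Figure D2:**
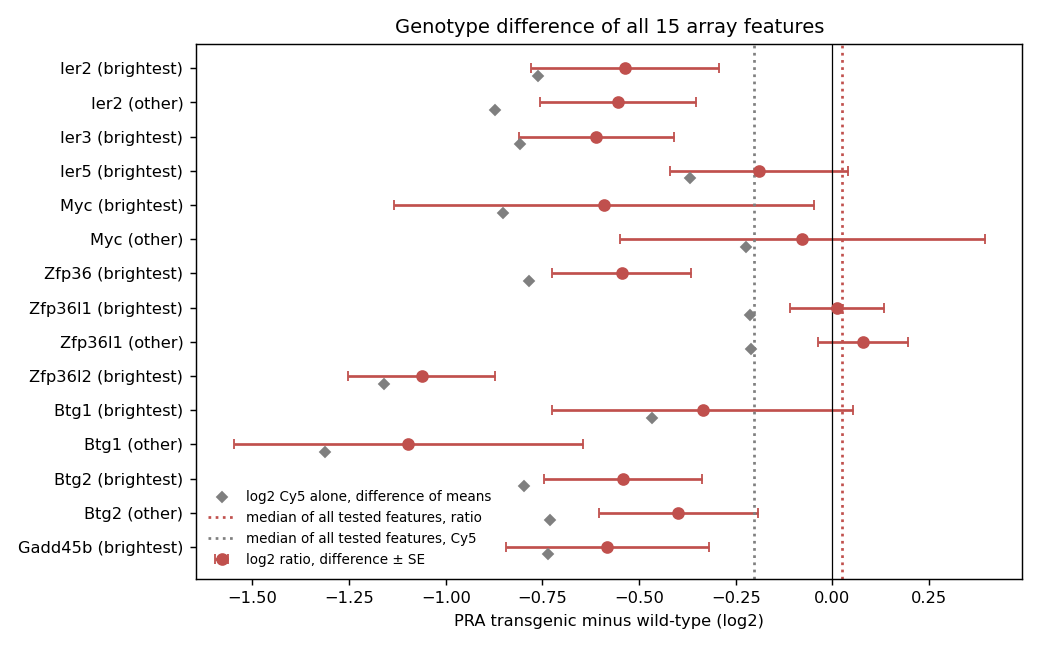
Difference between genotypes (PRA transgenic minus wild-type, log2, horizontal axis) of all 15 probes, as the log2 ratio with its SE (circles) and as log2 Cy5 alone (diamonds), with dotted lines at the medians of all 34288 tested probes. The circles of Zfp36l2 and the dimmer Btg1 probe lie near -1.1, those of both Zfp36l1 probes lie at the line for all probes, and the diamonds are shifted to the left of the circles by about the shift of the whole array.

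The reference channel held the same RNA on every array. It is the denominator of the ratio, so its difference is part of the values that chose the genes and is given as a description too. In log2 Cy3 the 15 probes were lower on the PRA transgenic arrays by 0.10 to 0.33, with a median of -0.22 that was also the median of all 25685 probes tested. At an unadjusted limma P under 0.05, 8 of the 15 were lower, where 46.6% of all were, and 0 of the 15 passed an adjusted p of 0.05, where 0.973% of all were lower. Without wild-type gland 3, 10 of the 15 passed, as did 64.6% of all probes. After quantile normalization of this channel the members' median was -0.01 and 0 passed, as did 0 of all probes.

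The comparison of gland with reference RNA was not used to choose the genes and could be tested. Averaged over both genotypes, 11 of the 15 probes were lower in the gland than in the cell line pool (adjusted p under 0.05, limma), where 36.6% of all tested probes were lower, and 2 were higher, where 38.7% of all were higher. The median of the 15 was -1.29 against 0.04 for all tested probes. Of the 14 probes above background on all arrays, 10 were lower. The dimmer Ier2 probe, which was not well above background on 3 of 4 PRA transgenic arrays, is given no size here. Ier3 differed from the reference by -3.35 (SE 0.10, adjusted p = 1.79e-07), or 10.2-fold, and Gadd45b by -2.26 (SE 0.13, adjusted p = 4.24e-06). Ier2 on its brighter probe was 4.01-fold lower (adjusted p = 5.3e-06).

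Myc, a gene of proliferating cells, differed by -1.64 (SE 0.27, adjusted p = 0.000984) and by -1.48 (SE 0.24, adjusted p = 0.000816) on its other probe. Zfp36 differed by -1.29 (SE 0.09), Ier5 by -1.07 (SE 0.12) and Btg2 by -0.91 (SE 0.10), each with an adjusted p under 0.05. Zfp36l1 was the member that was higher in the gland on both of its probes, by 1.20 (SE 0.06, adjusted p = 2.27e-06), or 2.29-fold, and by 0.36 (SE 0.06, adjusted p = 0.000866). Zfp36l2 differed by 0.10 (SE 0.09, adjusted p = 0.355) and Btg1 on its brighter probe by 0.31 (SE 0.19, adjusted p = 0.184), whereas the dimmer Btg1 probe differed by -2.10 (SE 0.23), so no direction can be given for Btg1. Within the Zfp36 family, therefore, the member furthest above the reference was also the member whose genotypes overlapped throughout. There was no dye swap, so dye and RNA cannot be told apart in these values.

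**Figure D3:**
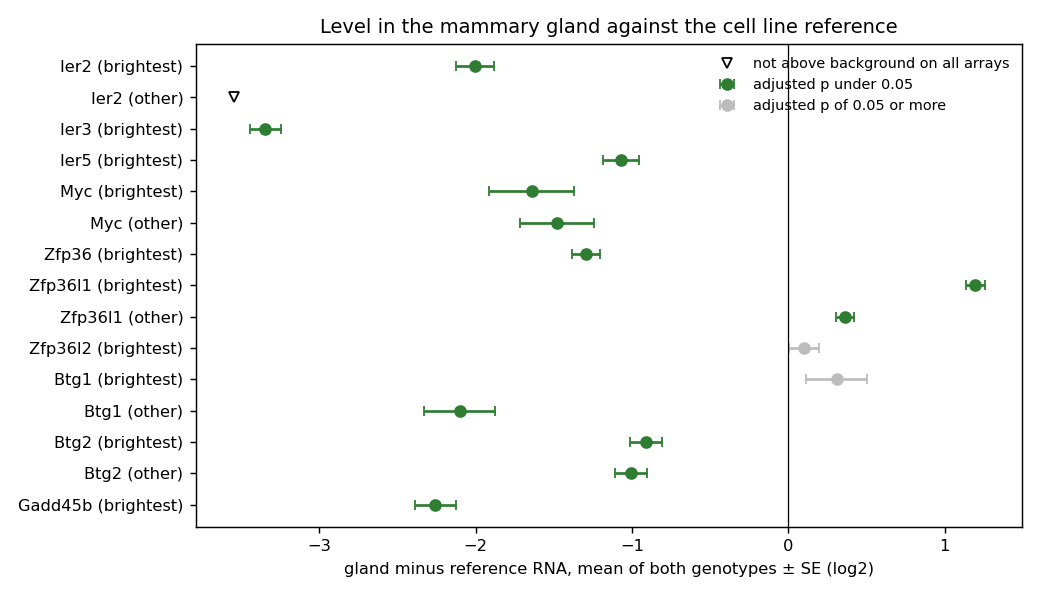
Log2 difference of the gland from the reference RNA, averaged over both genotype means ± SE (horizontal axis), for all 15 probes, with green for an adjusted p under 0.05 and an open triangle without SE for the dimmer Ier2 probe, which was not above background on all arrays. Of the others, 10 lie to the left of 0, both Zfp36l1 probes lie to the right, and Zfp36l2 and the brighter Btg1 probe are not separated from 0.

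Glands of one genotype differed among themselves, and the members did not vary as a block. Myc and Ier2 were highest in the same glands: wild-type gland 3 stood 1.12 above its genotype mean for Myc and 0.46 for Ier2, and PRA transgenic gland 2 stood 0.94 and 0.46 above. Btg1 and Gadd45b were low in those same glands, at -0.58 and -0.39 in wild-type gland 3 and -0.61 and -0.22 in PRA transgenic gland 2. Zfp36, Zfp36l2 and Btg2 followed a further pattern, with PRA transgenic gland 4 highest of its genotype for each (0.39, 0.43 and 0.43 above the mean) and PRA transgenic gland 3 lowest (-0.23, -0.29 and -0.38).

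These relations were tested on the deviations from the genotype means over the 7 arrays, by exact two-sided permutation within genotypes, over the 45 pairs of genes. Ier2 and Myc gave a Pearson r of 0.95 (exact permutation p = 0.0139, adjusted 0.156) and a Spearman rho of 0.89 (exact permutation p = 0.0556, adjusted 0.417), and Btg1 and Gadd45b gave r = 0.93 (exact permutation p = 0.0347, adjusted 0.312) and rho = 0.82 (exact permutation p = 0.0833, adjusted 0.469). Btg1 and Myc gave r = -0.94 (exact permutation p = 0.0139, adjusted 0.156) and rho = -0.82 (exact permutation p = 0.0278, adjusted 0.417). Zfp36 and Zfp36l2 gave r = 0.91 (exact permutation p = 0.0139, adjusted 0.156) and rho = 0.89 (exact permutation p = 0.0417, adjusted 0.417). None of the 45 pairs passed the adjustment, and 144 arrangements cannot give a p under 0.0069. Without the 2 glands farthest from the median of the first named gene of each pair, r was 0.90, 0.93, -0.95 and 0.87 in the same order, and without those farthest from the median of the second it was 0.93, 0.92, -0.94 and 0.96. Btg2 and Zfp36 gave r = 0.9 (exact permutation p = 0.0486, adjusted 0.357) and rho = 0.68 (exact permutation p = 0.153). Btg2 and Zfp36l2 gave r = 0.78 (exact permutation p = 0.139, adjusted 0.478) and rho = 0.5 (exact permutation p = 0.312). Btg1 and Ier2 had the smallest p of the 45 pairs, with r = -0.8 (exact permutation p = 0.00694, adjusted 0.156) and rho = -0.79 (exact permutation p = 0.0208).

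**Figure D4:**
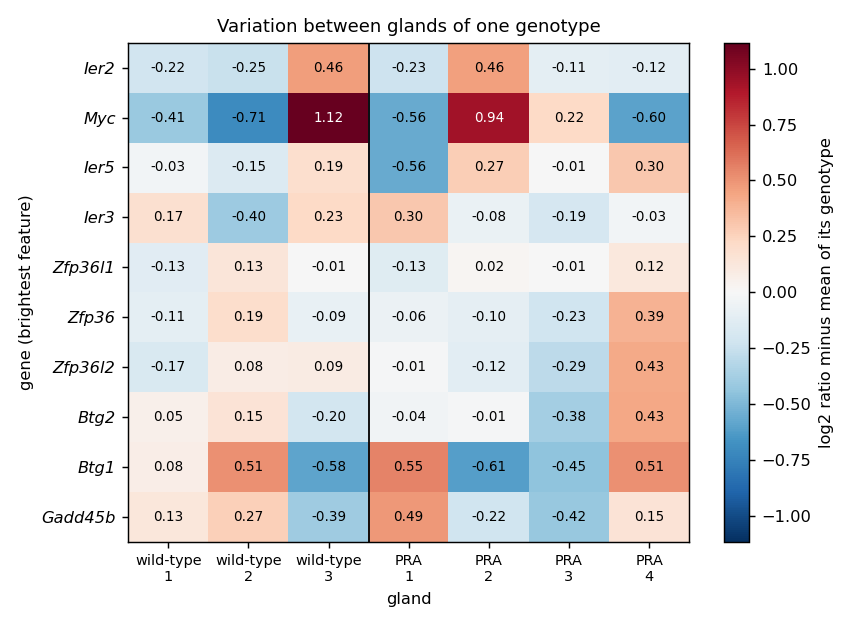
Log2 ratio of each gland (columns) minus the mean of its genotype, for the brightest probe of each gene (rows), with red above and blue below the mean and the value in each cell. Wild-type gland 3 and PRA transgenic gland 2 are red for Ier2 and Myc and blue for Btg1 and Gadd45b, and PRA transgenic gland 4 is red for Zfp36, Zfp36l2 and Btg2.

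By the mean of the 10 centred brightest probes, wild-type gland 3 stood highest (0.37) and PRA transgenic gland 3 lowest (-0.40), and the highest reading fell in wild-type gland 2 for 5 of the 10 genes and in wild-type gland 3 for the other 5. Against the mean of the other 9 genes over the 7 arrays, Zfp36l2 followed most closely (r = 0.96), then Zfp36 (0.87), Btg2 (0.82) and Ier3 (0.71), whereas Btg1 (0.16), Myc (0.12) and Zfp36l1 (0.07) did not. These values are a description and contain the genotype difference by which the genes were chosen. Among the other genes on the array, those most like the mean of the 10 included Gigyf2 (r = 0.992), Qsox1 (0.979), Kcnma1 (0.976) and Junb (0.975), out of 34288 probes compared over 7 arrays.

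Genes around the group were described from lists of related genes with 1 probe each, and no gene of the 7 lists (119 genes tested) passed an adjusted p of 0.05, with a smallest adjusted p of 0.34. Immediate-early genes outside the 10 were lower most often: 10 of 32 were lower at the unadjusted P and fold change above and none was higher, where 2.59% and 1.94% of all tested probes were lower and higher. Their median difference was -0.36 and 28 of the 32 had a negative difference. Some of these genes were known from earlier results of these arrays to be lower, so the count is not independent evidence of the direction. Egr1, a zinc finger factor that growth signals induce, read -2.30, -2.11 and -0.81 in wild-type and -3.77, -2.62, -2.83 and -3.80 in PRA transgenic glands, a difference of -1.51 (SE 0.46, adjusted p = 0.429) with no overlap. Arc differed by -1.41 (SE 0.39), also with no overlap, and Egr2 and Fos by -1.44 (SE 0.55) and -1.37 (SE 0.50) with overlap. Without wild-type gland 3, in which Egr1 and Arc stood highest, 4 of the 32 were lower, where 2.81% of all tested probes were. With the methods' t-test 6 of the 32 were lower, where 1.64% of all were.

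The deadenylation machinery and known target messages were examined in the same way. Of 24 CCR4-NOT, deadenylation and decapping genes none was called, and their median was -0.02. At an unadjusted P under 0.05 alone 1 of the 24 passed, where 3094 of the 34288 tested probes did in either direction. Cnot8, a deadenylase subunit, differed by -0.37 (SE 0.11, adjusted p = 0.421) and Tnks1bp1 by -0.35 (SE 0.15). Of 20 messages that Zfp36 proteins are known to bind, 11 had a probe kept and none was called, with 2 at an unadjusted P under 0.05 and a median of -0.16, and the members with the largest differences were also negative: Ptgs2 differed by -0.81 (SE 0.54) and Ccl2 by -0.58 (SE 0.12, adjusted p = 0.34). The cytokines Il6, Il10, Il2, Il3, Il17a, Il23a, Csf2, Cxcl2 and Lif did not have gland signal above background on every array of either genotype.

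Of 10 other family members, Gadd45g, the relative of Gadd45b, was called lower at -0.65 (SE 0.24, adjusted p = 0.499), and Tob2, a Btg relative that also binds deadenylases, differed by -0.57 (SE 0.20), just short of the fold change. Of 10 Myc partners and antagonists none was called, with a median of 0.08, Mlxip at -0.61 (SE 0.26) and Mlx at 0.42 (SE 0.25). At an unadjusted P under 0.05 alone 1 of the 10 passed, where 3094 of the 34288 tested probes did in either direction. Of 18 genes known as Myc targets 1 was higher, the RNA polymerase I subunit Polr1b at 0.79 (SE 0.29, adjusted p = 0.495), and the median was 0.13. Of 14 p53 targets and growth arrest partners of Gadd45 proteins none was called, with 1 at an unadjusted P under 0.05 and a median of 0.00, with Pmaip1 at -0.49 (SE 0.22) and Sesn2 at -0.48 (SE 0.16).

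**Figure D5:**
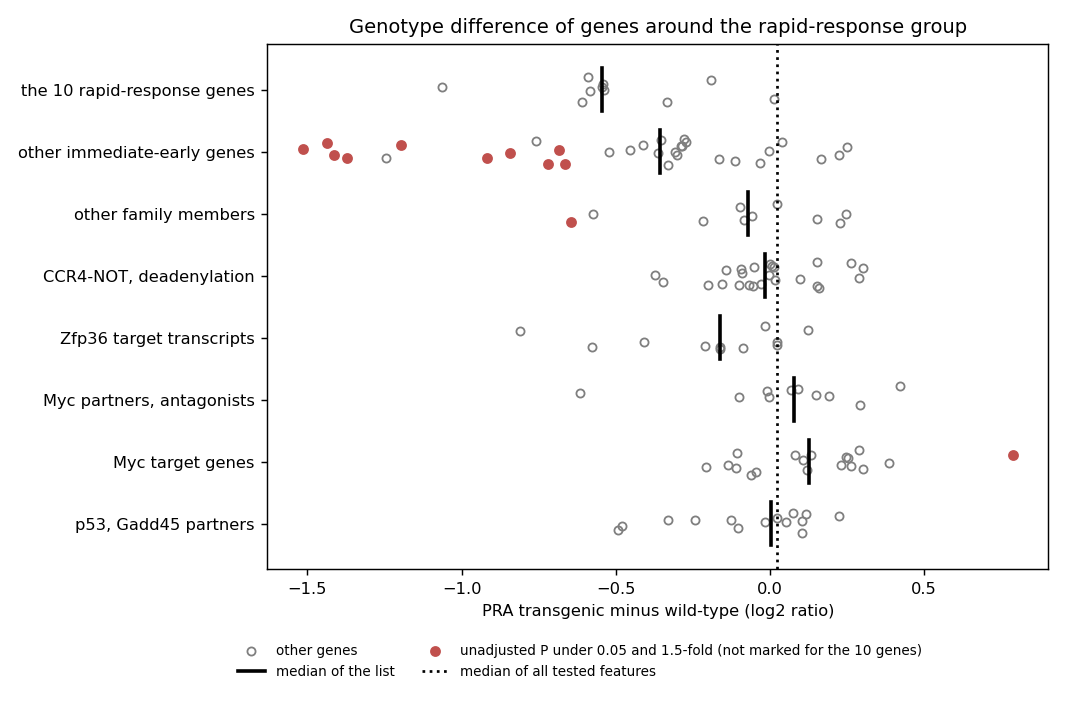
Difference between genotypes in the log2 ratio (horizontal axis) for the 10 genes and 7 lists of related genes (rows), 1 point a gene, with filled points for an unadjusted P under 0.05 and 1.5-fold (not marked for the 10 genes), a bar for the median of each list and a dotted line for the median of all tested probes. The medians of the 10 genes (-0.54) and of the other immediate-early genes (-0.36) lie to the left of the line, and those of the other 6 lists lie between -0.16 and 0.13.

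Markers of the cell types in a gland were read against the reference and between genotypes. At an adjusted p under 0.05 in limma, 12 of 14 luminal and 6 of 7 basal markers were higher than in the reference. All 8 white adipocyte markers were higher too, where 38.7% of all tested probes were. None of these 3 lists had a gene called between genotypes in limma. At an unadjusted P under 0.05 alone 0 of their genes passed, where 3094 of the 34288 tested probes did in either direction. The median differences of the 3 lists were -0.15, 0.08 and 0.15. The mean log2 ratio of the T cell markers was 1.87 in wild-type gland 1 and between -0.60 and 0.12 in the other glands, and that of the B cell markers was 1.58 in wild-type gland 1 and between -1.24 and -0.52 elsewhere. All 8 T cell markers had a lower mean in PRA transgenic glands, with a median difference of -0.82. Of the 8, 1 was called lower (Cd8a, -2.71, SE 0.88), where 2.59% of all tested probes were. Of 5 B cell markers 4 had a lower mean, with a median difference of -0.64. None of the 5 was called, with 0 at an unadjusted P under 0.05. None of the 10 rapid-response genes had the highest reading of its brightest probe in wild-type gland 1. The part of lymphocytes in the genotype differences was not tested. Skeletal muscle markers averaged 1.46 and 2.84 in wild-type glands 1 and 3 and 2.35 in PRA transgenic gland 4, against -1.36 to -0.95 in the other 4. The 2 wild-type glands with high muscle markers gave Zfp36l2 readings of 0.46 and 0.72 and the one without gave 0.71, while PRA transgenic gland 4 had the highest Zfp36l2, Zfp36 and Btg2 of its genotype. Without that gland the differences of Zfp36l2, Zfp36 and Btg2 were -1.20, -0.68 and -0.69, and the part of muscle in these readings was not tested. Of 7 endothelial markers 1 was called higher in PRA transgenic glands, where 1.94% of all tested probes were, and their median difference was 0.16. Of 7 macrophage, 7 fibroblast and 7 muscle markers none was called, with 1, 1 and 0 at an unadjusted P under 0.05. A lower mean in PRA transgenic glands was held by 5, 6 and 6 of them, with median differences of -0.15, -0.11 and -1.34.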

How the data were processed

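RNA from mammary glands (3 wild-type, 4 PRA transgenic) was hybridized on 2-colour Agilent arrays, 1 array per mouse with 59305 spots besides the control spots. The authors deposited Feature Extraction scanner files (version 12.0, per the labels' processing notes) with processed intensity per spot, background-subtracted and dye-normalized, and a table of log2 ratios that the authors deposited, which equalled the scanner log2 ratios centred on each probe's median over the 7 arrays. From these, log2(Cy5/Cy3) was recomputed, outlier spots (98 to 198 per array) and control spots were left out, and spots of a probe were averaged, giving 56605 probes. Probes were kept where Cy5 stood well above background throughout 1 genotype or both (34288). The genotype and gland against reference contrasts were fitted in limma 3.58.1 (R 4.3.3) across all kept probes. Cy3 alone was fitted in limma across the 25685 probes with Cy3 well above background on all 7 arrays. Each fit had Benjamini-Hochberg adjustment over its own probes, and the genotype fit was tested on simulated data. The number of arrays limits the precision, and no spot was saturated.

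The brightest kept probe in mean Cy5 stood for a gene. Named genes were every member probe, Pgr, in each list those past an unadjusted P of 0.05 and 1.5-fold (at most 4 by size, otherwise the 2 with the largest difference), and the 5 genes most like the members' mean, of which 1 is not reported here. The members and lists were chosen with earlier results of these data known. Alternatives were normexp with an offset of 50 and loess, the deposited table, other filters, the gland channel alone, the methods' t-test, quantile normalization, the replicate number as a block, the median over probes, leaving out each array, and, chosen after seeing the data, each channel centred on its 75th percentile. A block for slide could not be estimated from arrays of 1 slide. Promoter sequences came from RefSeq (GRCm38.p6). No annotation of mm9 was used, so exon positions of the probes are not given.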

Additional observations from a re-analysis of the deposited data

Results flagged for a closer look

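In the 4 PRA transgenic glands 3 of 47 sets of values held a gland far from the others by the ratio of its gap to the whole range, where chance alone would give 2.35. The dimmer Ier2 probe read 3.22 in log2 Cy5 in gland 2, against 3.80 to 3.91 in the others (ratio 0.844), on a probe that was above background on 1 of these 4 arrays. The mean of the skeletal muscle markers was 2.35 in gland 4, against -1.17 to -0.95 (ratio 0.937), and the mean of the fibroblast markers was 2.98 in the same gland, against 2.49 to 2.51 (ratio 0.959). Without gland 4 the genotype difference of Zfp36l2 was -1.20 and 6 of the 15 member probes were lower, where 3.51% of all tested probes were.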

How the results depend on the processing

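Of the 17 alternatives, 4 cannot move a gene's genotype difference and the replicate block repeats the difference without PRA transgenic gland 4. Under the other 12, 9 of the 10 genes kept their sign on the brightest probe or the median over probes. Ranges were -1.20 to -0.95 for Zfp36l2, -0.79 to -0.45 for Zfp36, -0.81 to -0.48 for Ier3, -0.76 to -0.31 for Ier2, -0.37 to -0.00 for Ier5, -0.72 to -0.08 for Btg1 and -0.94 to -0.03 for Myc. The dimmer Myc probe did not keep its sign. It gave 0.35 without wild-type gland 3, 0.07 without PRA transgenic gland 1 and 0.15 without PRA transgenic gland 4. Zfp36l1 kept its sign under 8 of 12. The 3 member probes lower in PRA transgenic glands (2.59% of all tested probes) were 9 in Cy5 alone (6.02% of all) and 1 after quantile normalization (2.39%). They were 5 in Cy5 centred on the 75th percentile (2% of all) and 1 to 6 when an array was left out (2.18 to 3.51%). The 2 probes higher in the gland than in the reference were 4 with normexp and loess and 1 with the median over probes. The 11 list genes lower were 22 in Cy5 alone, 6 with the methods' t-test and 5 to 17 when an array was left out, and the 1 list gene higher was 0 with the t-test and 0 to 3 when an array was left out. Member probes lower in Cy3 were 0 to 10 when an array was left out. Over all tested probes, the counts lower and higher were 887 and 665, against 217 and 111 with normexp and loess, 2065 and 161 in Cy5 alone, 2135 and 1232 with no filter, 245 and 223 with both channels above background, 562 and 434 with the t-test, and 1290 and 1154 with the replicate block. The causes were not tested.

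Replicate numbers did not pair the glands: the deviations of same-numbered glands correlated at 0.10, -0.30 and 0.04. With the replicate number as a block, which takes PRA transgenic gland 4 out of the difference, 6 member probes were lower. There 3.76% of all tested probes were lower, and 17 list genes were lower and 3 higher.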
